A study of Mus musculus with 6 samples.

Results

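The miR-130/miR-301 and miR-148/miR-152 families are 2 groups of microRNAs (miRNAs) named for the seeds of their 3p strands, the bases from position 2 to position 8 through which a miRNA pairs with its target mRNAs. Their members were taken by name, as every strand of mmu-miR-130a, mmu-miR-130b, mmu-miR-301a and mmu-miR-301b for the first family and of mmu-miR-148a, mmu-miR-148b and mmu-miR-152 for the second. This gave 14 mature strands from 7 hairpins, of 535 mature miRNAs in the count table. All 14 were among the 525 miRNAs that entered the test, those whose counts in the 6 libraries together exceeded 10.

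Small RNA was sequenced from wildtype CD1 mouse embryos at embryonic day 15.5. There were 3 libraries of mesenchymal cells in which nephron progenitors were enriched (MNP) and 3 of whole kidney (MWK). The study's methods describe 3 biological replicates from 3 litters and do not say whether each library was 1 litter. Nephron progenitors, which give rise to the epithelium of the nephron, were enriched by magnetic depletion of cells carrying CD140a, CD105, Epcam or Ter119, so that stromal, endothelial, epithelial and erythroid cells are the main targets of removal. The whole kidney samples were the kidneys left after the limited digestion that released the progenitors, and isolation and group cannot be told apart. By the study's methods both groups came from the same 3 litters, so libraries of the 2 groups share litters, but which share one is not given and the tests are unpaired. The libraries are named MNP1, MNP2, MNP6, MWK1, MWK2 and MWK6 as in the count table, and values are given in that order.

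With 1 value per mature miRNA, the libraries held 393951, 436113 and 333850 counts for MNP1, MNP2 and MNP6, and 349241, 360221 and 355848 counts for MWK1, MWK2 and MWK6. Levels are CPM (counts scaled to a common library total) after TMM scaling, which sets libraries level by the bulk of their miRNAs. On this scale a strand with 3 counts in 1 library stands at between 6.53 and 9.44 CPM, a floor that covers counting error only. Levels are given as mean ± SD over n = 3 libraries in each group. The quasi-likelihood test of edgeR was applied to the difference between groups at an adjusted p of 0.05, with log2 fold changes (log2FC) of nephron progenitor over whole kidney.

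Each hairpin is cut by Dicer into a 5p and a 3p strand, of which usually one is loaded into the silencing complex as the guide and the other is degraded. Dicer is required for the survival of nephron progenitors in the mouse. In both families the conserved guide is the 3p strand, and guide here names that strand whichever strand held more counts. In 3 of the 4 miR-130/miR-301 hairpins the 5p strand held more counts. Loading into the silencing complex was not measured. Transcripts reported as targets of the miR-130/miR-301 family include that of the adipogenic nuclear receptor Pparg, and transcripts reported as targets of miR-148/miR-152 include that of the maintenance DNA methyltransferase Dnmt1. No target was measured in these libraries.

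The most abundant strand was a 3p guide in miR-148/miR-152 and a 5p strand in miR-130/miR-301, though the levels of their strands overlapped. In miR-148/miR-152 the guide miR-148a-3p ranked 11 of 525 tested miRNAs by mean CPM, and 2 strands of the family, miR-148a-5p and miR-148b-3p, were lower in nephron progenitors past the threshold. In miR-130/miR-301 most counts lay on miR-130b-5p, the guide miR-130a-3p ranked 208 of 525, and the other guides were near the limit of detection. No strand of the family passed the threshold. In all, 2 of the 14 strands passed, both lower in nephron progenitors, while among all 525 tested miRNAs 192 passed in either direction (36.6%) and 90 were lower in nephron progenitors (17.1%). The CPM of the groups did not overlap for 7 of the 14 strands, beside 245 of 525 miRNAs (46.7%). Of the members 14.3% thus passed, beside 36.6% of tested miRNAs in either direction. All of these members were in the lower direction, where 17.1% of tested miRNAs passed. In the higher direction 0 of 14 members passed, beside 102 of 525 miRNAs. For 50% of the members the groups did not overlap. When miRNAs needed more than 10 counts in every library, 9 members were tested and 4 passed (44.4%), beside 120 of 260 miRNAs (46.2%).

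The guide strands of miR-130/miR-301 share the seed AGUGCAA, and the sequences show how they differ outside it. Mature sequences are those of RefSeq for GRCm38.p6, which held 13 of the 14 strands, and are written 5′ to 3′ with the seed in capitals.
miR-130a-3p: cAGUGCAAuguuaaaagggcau
miR-130b-3p: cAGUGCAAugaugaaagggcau
miR-301a-3p: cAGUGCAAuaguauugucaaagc
Aligned from the 5′ end, miR-130a-3p and miR-130b-3p were identical at 20 of 22 positions, and miR-130a-3p and miR-301a-3p at 12 of 22. How reads that match more than 1 member were assigned was not tested.

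Among these guides miR-130a-3p had the highest level. It stood at 140.3, 135 and 105 CPM in MNP1, MNP2 and MNP6 and at 135, 126 and 90.6 CPM in MWK1, MWK2 and MWK6. The groups overlapped, with the lowest value of each in its library numbered 6. The means were 127 ± 19.0 and 117 ± 23.6 CPM, with a log2FC of 0.12 (SE 0.25, edgeR adjusted p = 0.77).

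The other 3 guides of the family were near the limit of detection. miR-130b-3p gave 20, 6 and 10 counts in the nephron progenitor libraries and 5, 6 and 12 in the whole kidney libraries, or 29.5 ± 18.3 and 23.0 ± 10.6 CPM. miR-301a-3p gave 8, 12 and 7 counts against 9, 5 and 5, or 21.4 ± 4.15 and 19.1 ± 6.88 CPM. For both, the groups overlapped, and a difference was not detectable at this depth (edgeR adjusted p of 0.68 and 0.82). miR-301b-3p was the rarest member, with 2, 1 and 4 counts in the progenitors and 2, 3 and 7 in whole kidney, which allows no useful fold. Taken as a sum, the 3p strands of the family came to 214, 176 and 160.3 CPM in the nephron progenitor libraries and 183, 170.0 and 161 CPM in the whole kidney libraries. These sums overlapped almost entirely, at 184 ± 27.7 and 171 ± 11.4 CPM.

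The 5p strands of miR-130/miR-301 carry other seeds and held most of the family's counts. They are shown because the most abundant member of the family, miR-130b-5p, is one of them and because those of miR-301a and miR-301b share a seed.
miR-130b-5p: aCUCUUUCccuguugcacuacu
miR-130a-5p: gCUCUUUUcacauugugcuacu
miR-301a-5p: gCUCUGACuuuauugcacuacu
miR-301b-5p: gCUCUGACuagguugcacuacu
The 5p strands of miR-301a and miR-301b were identical at 19 of 22 positions.

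miR-130b-5p ranked 61 of the 525 tested miRNAs by mean CPM. It reached 2991, 2062 and 2054 CPM in MNP1, MNP2 and MNP6 and 1578, 1659 and 1891 CPM in MWK1, MWK2 and MWK6. All 3 nephron progenitor values lay above all 3 whole kidney values, with MNP1 far above the other two and MNP6 close to MWK6. The means were 2369 ± 538 and 1709 ± 162 CPM, with a log2FC of 0.47 (SE 0.19). In edgeR the unadjusted p was 0.0273 and the adjusted p 0.0705, so the difference did not pass the threshold. Without MNP1 the log2FC was 0.27 (edgeR adjusted p = 0.20), the lowest of a range of 0.27 to 0.57 with each library left out, and the adjusted p over the 18 alternatives ran from 0.0103 to 0.253.

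miR-301a-5p, processed from the same hairpin as a guide that overlapped between groups, was lower in each nephron progenitor library. It stood at 76.3, 71.9 and 65.7 CPM in the progenitors and at 87.2, 101 and 93.5 CPM in whole kidney. The groups did not overlap, at 71.3 ± 5.34 and 93.8 ± 6.78 CPM, and the log2FC of -0.39 (SE 0.24) did not pass the threshold (edgeR adjusted p = 0.26). Under upper quartile scaling the groups overlapped. miR-301b-5p, at 32.6 ± 10.1 and 28.0 ± 13.9 CPM, overlapped between groups. miR-130a-5p also overlapped, with 5, 5 and 5 counts in the progenitors and 2, 8 and 4 in whole kidney.

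Over the miR-130/miR-301 family as a whole, 0 of 8 strands passed the adjusted threshold in edgeR, and likewise 0 in DESeq2 and in limma-voom, beside 36.6% of all tested miRNAs in edgeR, 31.7% in DESeq2 (of the 514 with an adjusted p) and 34.7% in limma-voom. miR-130b-5p passed in 6 of 18 alternatives, with edgeR adjusted p of 0.0126 with library totals (log2FC 0.67), 0.0349 with upper quartile scaling, 0.0397 with more than 10 counts in every library, 0.0477 with counts summed over rows, 0.0366 without MNP6 and 0.0103 with the replicate block. A single strand, miR-130b-5p, had an unadjusted edgeR p under 0.05. The groups did not overlap for 2 of the 8, miR-130b-5p and miR-301a-5p, which lay in opposite directions, beside 46.7% of all tested miRNAs. The median log2FC of the 8 strands was 0.14 and the median of its size 0.28, against -0.01 and 0.61 over all tested miRNAs. Mean counts were below 10 for 4 of the 8, which limits what these values can show.

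Because miR-130b-5p dominated it, the summed level of the family followed that strand. The sum was 3335, 2343 and 2328 CPM in the nephron progenitor libraries and 1873, 1977 and 2201 CPM in the whole kidney libraries. These did not overlap, with a ratio of means of 1.32, which was 1.16 without MNP1. miR-130b-5p made up 88.6 ± 0.893% of the family in the progenitors and 84.7 ± 1.07% in whole kidney. The share of miR-301a-5p was 2.73 ± 0.398% and 4.67 ± 0.423%, and that of the guide miR-130a-3p 4.83 ± 0.824% and 5.90 ± 1.60%.

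**Figure D1:**
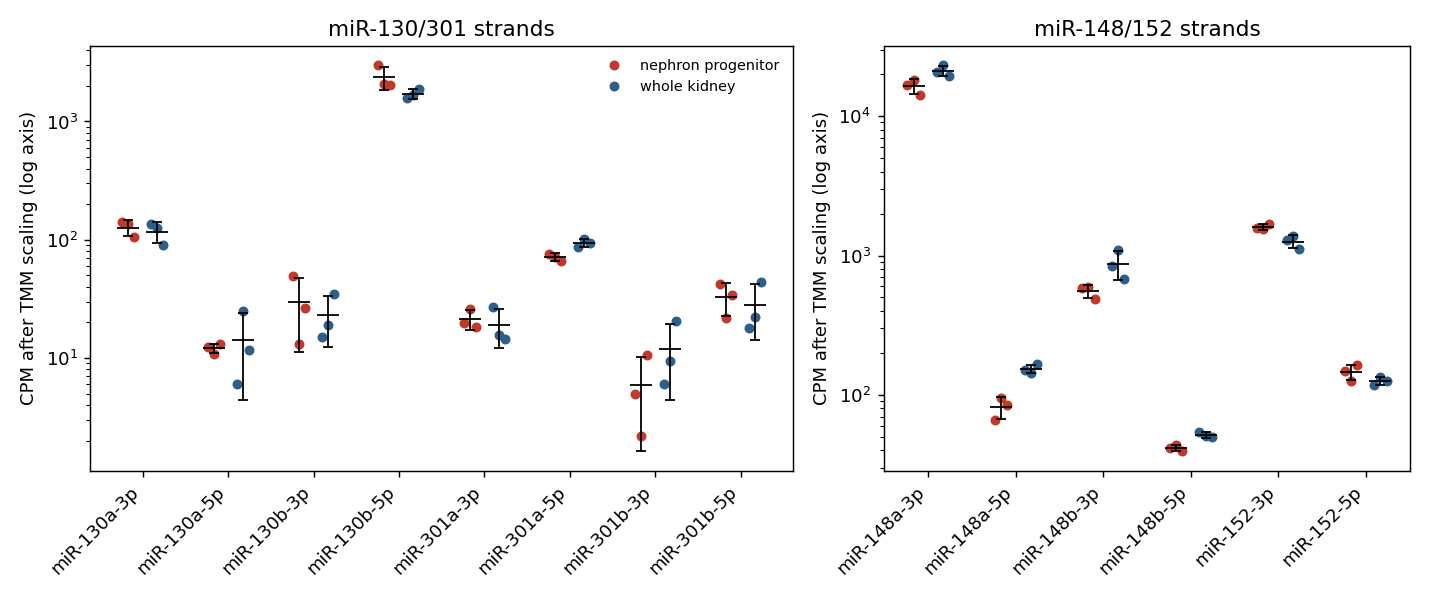
Level of each strand of miR-130/miR-301 (left) and miR-148/miR-152 (right) in CPM after TMM scaling, on a log axis. Points are libraries (red, nephron progenitor; blue, whole kidney), and bars give mean ± SD (n = 3). miR-148a-3p (16419.7 and 21119.6 CPM) and miR-130b-5p (2369 and 1709 CPM) lead their families, and miR-148a-5p (82.1 and 154 CPM) shows the widest gap between groups among the strands of miR-148/miR-152.

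The guides of miR-148/miR-152 share the seed CAGUGCA, which is the miR-130/miR-301 seed moved by a single base, so that both contain the run AGUGCA. They are shown because they hold nearly all of the family's counts and differ in the direction of their values.
miR-148a-3p: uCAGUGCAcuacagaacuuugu
miR-148b-3p: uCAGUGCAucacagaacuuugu
miR-152-3p: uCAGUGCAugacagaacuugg
From the 5′ end, miR-148a-3p matched miR-148b-3p at 20 of 22 positions and miR-152-3p at 18 of 21, and miR-148b-3p matched miR-152-3p at 19 of 21.

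miR-148a-3p was the most abundant strand of both families. Its level was 16849, 18233 and 14176 CPM in MNP1, MNP2 and MNP6 and 20732, 23167 and 19460.4 CPM in MWK1, MWK2 and MWK6. On the TMM scale every nephron progenitor library lay below every whole kidney library, with MNP6 lowest and MWK2 highest. The means of 16419.7 ± 2062 and 21119.6 ± 1883 CPM gave a log2FC of -0.36 (SE 0.14), with all 3 progenitor libraries on the lower side. In edgeR the unadjusted p was 0.0256 and the adjusted p 0.0667, so the difference did not pass the threshold. The log2FC was -0.16 with library totals and -0.23 with upper quartile scaling (edgeR adjusted p of 0.345 and 0.379), and under both the groups overlapped.

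miR-148b-3p, the guide closest to it in sequence, was lower in nephron progenitors past the threshold. It was at 583, 590.2 and 486 CPM in the nephron progenitor libraries and at 848, 1089 and 684 CPM in the whole kidney libraries. The groups did not overlap, and the whole kidney libraries were spread more widely, from MWK6 to MWK2. With means of 553 ± 58.3 and 874 ± 204 CPM, the log2FC was -0.66 (SE 0.21, edgeR adjusted p = 0.0258). The call depended on single libraries and on the scaling: the edgeR adjusted p was 0.0518 without MNP2, 0.0595 without MNP6, 0.0883 without MWK1, 0.165 without MWK2, 0.102 with library totals and 0.0819 with upper quartile scaling, and its range over all 18 alternatives was 0.00300 to 0.165.

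The third guide, miR-152-3p, lay on the other side. It was at 1573, 1551 and 1692 CPM in the progenitors and at 1284, 1379 and 1116 CPM in whole kidney. Here every nephron progenitor library was above every whole kidney library, MNP6 being the highest and MWK6 the lowest. The means were 1605 ± 76.0 and 1259.6 ± 133 CPM, and the log2FC of 0.35 (SE 0.17) did not pass the threshold (edgeR adjusted p = 0.132). With library totals it was 0.56 and passed (edgeR adjusted p = 0.0182).

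The 5p strands of the family were far rarer than the guides. Those of miR-148a and miR-148b share a seed, and they are shown because miR-148a-5p had the lowest adjusted p of all 14 strands.
miR-148a-5p: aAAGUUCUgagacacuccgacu
miR-148b-5p: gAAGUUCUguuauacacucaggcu
miR-152-5p: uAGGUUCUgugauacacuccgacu
miR-148a-5p gave 27, 44 and 32 counts in the progenitors and 50, 46 and 57 counts in whole kidney. These are 66.5, 95.8 and 84.1 CPM against 150.3, 145 and 167 CPM, and the highest nephron progenitor library, MNP2, was well below the lowest whole kidney library, MWK2. The means were 82.1 ± 14.8 and 154 ± 11.3 CPM, with a log2FC of -0.90 (SE 0.25, edgeR adjusted p = 0.0108). This call held in all 18 alternatives run, with adjusted p from 0.00165 to 0.0439.

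The remaining 5p strands did not pass. miR-148b-5p was at 41.8, 43.6 and 39.4 CPM in the progenitors and at 54.1, 50.4 and 49.7 CPM in whole kidney, without overlap, and its log2FC was -0.30 (SE 0.28, edgeR adjusted p = 0.47). With library totals its groups overlapped. miR-152-5p overlapped between groups, at 146 ± 18.4 and 126 ± 9.07 CPM, with a log2FC of 0.20 (SE 0.23, edgeR adjusted p = 0.57). With library totals or upper quartile scaling the groups of miR-152-5p did not overlap, the progenitors being higher.

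Over the 6 strands of miR-148/miR-152, 2 passed the threshold, beside 36.6% of all tested miRNAs, and 5 did not overlap between groups, beside 46.7%. Of these 5, on the TMM scale, the strands of miR-148a and miR-148b were lower in the progenitors and miR-152-3p was higher. With library totals miR-148a-3p and miR-148b-5p overlapped, and miR-152-5p was separated and higher. With upper quartile scaling miR-148a-3p overlapped, and miR-152-5p was again separated and higher. The median log2FC was -0.33 and the median of its size 0.36, against -0.01 and 0.61 over all tested miRNAs. The summed level of the family was 19261, 20640.0 and 16641 CPM in the nephron progenitor libraries and 23185, 25965 and 21603 CPM in the whole kidney libraries. The ratio of the means was 0.799 and lay between this and 0.921 under the other scalings run, the latter with library totals. Library totals moved the median log2FC of all tested miRNAs to 0.19 and upper quartile scaling moved it to 0.11.

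Because all members of a family are counted in the same library, ratios between guides do not depend on the scaling between libraries. Log2 ratios of counts, with 1 added to each, were compared for the 3 pairs within miR-148/miR-152 and the 6 within miR-130/miR-301 by an exact two-sided permutation test, for which 0.1 is the smallest p that 3 against 3 libraries can give. miR-148a-3p over miR-152-3p was 3.42, 3.55 and 3.06 in the progenitors and 4.01, 4.07 and 4.12 in whole kidney. The groups were separated, with a difference of -0.72 (exact permutation p = 0.1, 0.225 adjusted over the 9 pairs). miR-148b-3p over miR-152-3p was -1.43, -1.39 and -1.79 against -0.60, -0.34 and -0.70, again without overlap and with a difference of -0.99 (exact permutation p = 0.1, adjusted 0.225). miR-148a-3p over miR-148b-3p had the smallest difference of these 3 pairs, at 4.85, 4.94 and 4.86 against 4.61, 4.41 and 4.82, or 0.27 with MNP1 and MWK6 nearly equal (exact permutation p = 0.1, adjusted 0.225).

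As a share, miR-152-3p made up 8.62 ± 1.38% of its family in the progenitors and 5.34 ± 0.186% in whole kidney. The share of miR-148b-3p was 2.94 ± 0.0857% and 3.67 ± 0.515%, and that of miR-148a-3p 87.0 ± 1.63% and 89.6 ± 0.452%. miR-152-3p thus held a larger part of the family in all 3 progenitor libraries, while on the TMM scale the summed level of the family lay lower in each of them than in any whole kidney library. With library totals or upper quartile scaling these sums overlapped between groups.

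**Figure D2:**
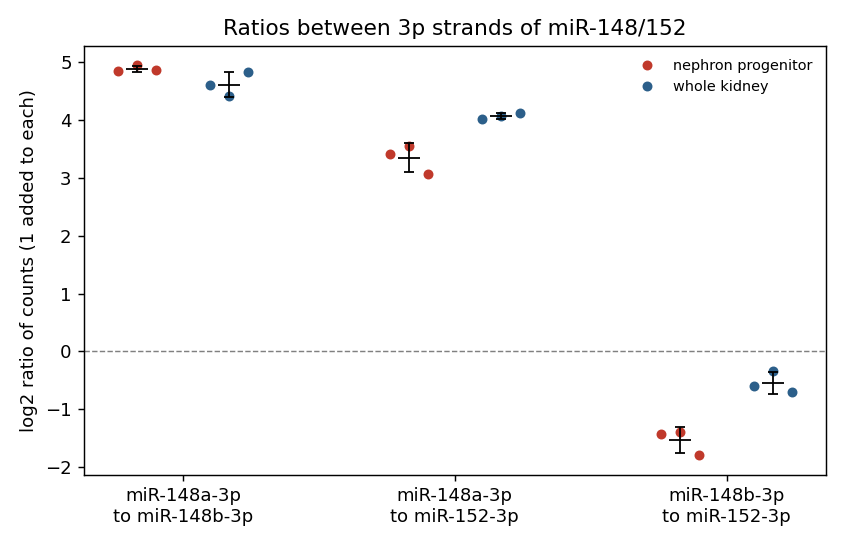
Log2 ratio of counts (1 added to each) between the 3p strands of miR-148/miR-152, by library. Points are libraries (red, nephron progenitor; blue, whole kidney), with mean ± SD (n = 3). Both ratios to miR-152-3p are lower in all 3 nephron progenitor libraries, by 0.72 for miR-148a-3p and 0.99 for miR-148b-3p on average.

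Among the guides of miR-130/miR-301, 5 of the 6 pairs overlapped between groups. The exception, miR-130b-3p over miR-301b-3p, rests on 1 to 20 counts a strand, with a difference of 1.08 (exact permutation p = 0.1, adjusted 0.225). miR-130a-3p over miR-301a-3p was 2.44 ± 0.22 in the progenitors and 2.46 ± 0.29 in whole kidney (exact permutation p = 0.9, adjusted 1).

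The strand that held most counts was taken hairpin by hairpin, and a difference between the families was not tested. For each hairpin the log2 ratio of 5p to 3p counts, with 1 added to each, was taken in every library. In miR-130/miR-301 the 5p strand exceeded the guide in 3 of 4 hairpins, while in miR-148/miR-152 the 3p strand was the higher in 3 of 3. The exception, mir-130a, had 3p strands at 91.1% of its counts in the progenitors and 89.2% in whole kidney. These shares were near those of mir-152, at 91.7% and 90.9%. Over all 137 hairpins with both strands tested, 5p was the higher in 78 (56.9%). mir-130b had the most extreme 5p excess of the members, ranking 15 of 137 from the 5p-most, with 3p strands at 1.17% of its counts in the progenitors and 1.30% in whole kidney. mir-148a lay near the opposite end, ranking 135 of 137, with 3p strands at 99.5% and 99.3%.

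The arm ratio of mir-148a was -7.93, -7.54 and -7.35 in the progenitors and -7.08, -7.29 and -6.84 in whole kidney. It was lower in all 3 nephron progenitor libraries, MNP6 and MWK2 being close, so that the 5p strand lay further below the 3p strand there, by 0.54 on average (exact permutation p = 0.1, 0.38 adjusted over 137 hairpins). The arm ratio of mir-301b was also separated, at 2.58, 2.46 and 1.49 against 1.22, 1.00 and 1.00, but rests on 1 to 17 counts a strand (exact permutation p = 0.1, adjusted 0.38). Thus 2 of the 7 member hairpins did not overlap between groups, beside 36 of 137 (26.3%), a share close to the background. The other 5 overlapped, including mir-130b at 6.36 ± 0.64 and 6.11 ± 0.42 and mir-152 at -3.45 ± 0.13 and -3.29 ± 0.15.

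**Figure D3:**
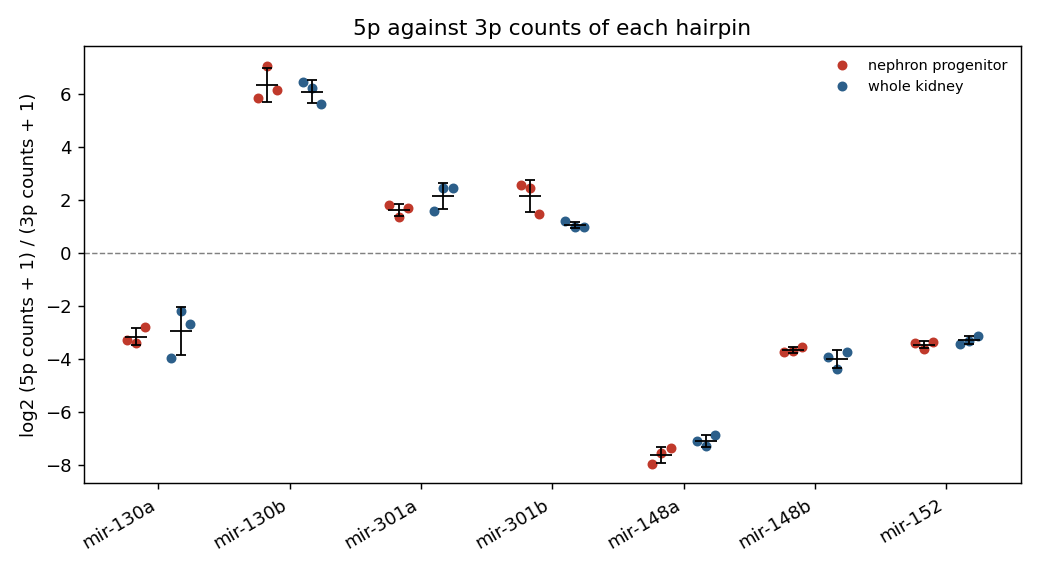
Log2 ratio of 5p to 3p counts (1 added to each) for the 7 hairpins, by library. Points are libraries (red, nephron progenitor; blue, whole kidney), with mean ± SD (n = 3), and the dashed line marks equal counts. mir-130b, mir-301a and mir-301b lie above the line and the other hairpins below it, with mir-148a lowest at -7.61 in the progenitors and -7.07 in whole kidney.

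Other miRNAs of the same seeds were looked for in RefSeq. Another 4, miR-130c, miR-721, miR-6341 and miR-6389, carry the AGUGCAA seed, but their names are absent from the count table. miR-19a-3p and miR-19b-3p, members of the proliferation-associated miR-17 clusters, have a different seed that holds the run GUGCAA of the miR-130/miR-301 seed at an offset, and do not hold AGUGCA.
miR-19a-3p: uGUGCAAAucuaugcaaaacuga
miR-19b-3p: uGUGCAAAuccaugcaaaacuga
miR-19a-3p was at 138, 113 and 108 CPM in the progenitors and at 195, 189 and 178 CPM in whole kidney, lower in all 3 nephron progenitor libraries, with a log2FC of -0.65 (SE 0.23, edgeR adjusted p = 0.0384). miR-19b-3p, at 544 ± 104 and 668 ± 61.8 CPM, overlapped between groups (edgeR adjusted p = 0.31). The offset relative miR-350-5p was near the floor, at 12.3, 2.18 and 18.4 CPM against 15.0, 6.30 and 2.92 CPM.

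The 7 hairpins lie at 6 loci of the mm10 (GRCm38) genome. mir-130b (chr16:17124061-17124142, minus strand) and mir-301b (chr16:17124400-17124496, minus strand) lie 257 bases apart in an intron of 2610318N02Rik. Their strands differed in level all the same. In nephron progenitors miR-130b-5p was at 2369 CPM and miR-301b-5p at 32.6 CPM. The 3p strands were at 29.5 CPM for miR-130b-3p and 5.87 CPM for miR-301b-3p, the latter from 2, 1 and 4 counts. mir-301a (chr11:87113004-87113089, plus strand) is in an intron of Ska2, which encodes a protein of the spindle and kinetochore. mir-130a (chr2:84741115-84741178, minus strand) overlaps no other annotated gene.

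The guides of miR-148/miR-152 come from separate chromosomes. mir-148b (chr15:103285125-103285221, plus strand) lies in an intron of Copz1 and mir-152 (chr11:96850393-96850465, plus strand) in an intron of Copz2, paralogous genes for the zeta subunit of the COPI vesicle coat. mir-148a (chr6:51269812-51269910, minus strand) overlaps no other annotated gene. Expression of the host genes was not measured in these libraries.

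Markers of other kidney cells also moved between the groups, and their part in the differences above was not tested. In bulk samples fewer cells of a type and less RNA per cell cannot be told apart. The 7 strands of the epithelial miR-200 and miR-141 group were all lower in nephron progenitors past the threshold, with a summed level of 226, 385 and 89.3 CPM against 23970, 25408 and 21860 CPM. miR-200a-3p was the most abundant of them, and miR-141-3p and miR-200b-5p were at 0 in all nephron progenitor libraries. Both strands of the endothelial miR-126a were lower, at a summed 418, 595 and 578 CPM against 20127, 21306 and 18172 CPM, most of it miR-126a-3p. The ratio of the progenitor mean to the whole kidney mean was 0.00984 for the epithelial and 0.0267 for the endothelial sum. For the lists that follow it was 0.263 (erythroid), 0.625 (stroma and smooth muscle), 1.31 (leukocyte) and 3.61 (skeletal muscle). That of the miR-148/miR-152 sum was 0.799, within the range of these lists.

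Of 7 erythroid strands 5 were lower, with 549, 405 and 271 CPM in the progenitors and 1858, 1851 and 953 CPM in whole kidney. The most abundant of them was miR-451a in whole kidney and miR-486a-5p, with counts identical to miR-486b-5p, in the progenitors. Of 10 strands of stroma and smooth muscle 2 were lower (miR-143-3p and miR-145a-5p) and 1 was higher (miR-199b-5p). Their sum was 44005, 58191 and 59507 CPM against 83077, 95619 and 80221 CPM, led by miR-143-3p in both groups. Without miR-143-3p the sum was 22739.6, 30105 and 33889 CPM against 22776, 24630.5 and 23105 CPM, overlapping between groups, and the median log2FC of the 10 strands was 0.20. Of 6 leukocyte strands 1 was higher (miR-223-5p), with sums of 150.2, 159 and 84.1 CPM against 111, 116 and 73.1 CPM, with miR-142a-3p the most abundant in the progenitors and miR-142a-5p in whole kidney. Of 3 skeletal muscle strands 1 was higher (miR-206-3p), which was the most abundant in the progenitors, while miR-1a-3p was in whole kidney, with sums of 300.3, 438 and 131 CPM against 66.1, 113 and 61.4 CPM.

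For the most abundant strand of each family, the miRNAs with the most similar pattern were taken among 198 others with a mean of at least 50 counts, by Pearson r of log2 CPM over the 6 libraries. For miR-148a-3p these were miR-23a-3p (r = 0.99), miR-23b-3p (r = 0.98) and miR-21a-5p (r = 0.97). All 3 were lower in nephron progenitors past the threshold and by more than miR-148a-3p, with log2FC of -1.07, -1.43 and -1.05. For miR-130b-5p they were miR-423-5p (r = 0.94), miR-25-3p (r = 0.93) and miR-99b-3p (r = 0.90), none of which passed the threshold (edgeR adjusted p of 0.137, 0.53 and 0.132). The 6 points share their libraries and their scaling and fall into the 2 groups, so these coefficients describe likeness only.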

How the data were processed

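The authors trimmed adapters, aligned reads to mm10 with Bowtie2 2.2.3 and took counts of known miRNAs from miRDeep2. The deposited values are estimated counts that were not normalized, on 792 rows that each pair a mature miRNA with a precursor. Of these expected counts 3 rows held fractions, so values were rounded to integers for the test, which had been planned for counts. The highest count over the rows of a mature miRNA was kept, and each member had 1 row. Counts were scaled by TMM and tested in edgeR 4.0.16 (R 4.3.3) with Benjamini-Hochberg adjustment over all 525 miRNAs. The SE is the size of the log2FC divided by the square root of F. Alternatives were DESeq2 1.42.0, limma 3.58.1, other scalings, filters and row handling, a replicate block and the removal of single libraries. The edgeR test was run on simulated data with 1 dispersion for all miRNAs. It recovered 61.05% of changes with a log2FC of 1 in size and 89.58% of those of 2. Of its calls 4.636% were false. Changes as small as those of most members were not simulated. Libraries of a group differed by more than counting noise (chi-square per degree of freedom 2.90 to 55.0 between pairs). The columns MNP6 and MWK6 carry a number that no sample title has and were used as libraries of the group their prefix names.

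Members, marker lists and the rule for named miRNAs (member strands, seed relatives, the most abundant marker of each list and the 3 miRNAs most like the leading strand of each family) were chosen with earlier results of these data known. Other markers were named after their values were seen. miR-199a-3p and miR-199b-3p had identical counts, as did miR-486a and miR-486b, and each enters the marker sums. Hairpin positions were the same in GENCODE M21 and RefSeq for 7 of 7. Figures used matplotlib 3.10.9 and exact tests scipy 1.17.1.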

Additional observations from a re-analysis of the deposited data

How the results depend on the processing

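The count of member strands past the edgeR threshold was 2, and 4 of the 9 still tested when miRNAs needed more than 10 counts in every library (miR-130b-5p, miR-148a-3p, miR-148a-5p and miR-148b-3p). That filter also lowered the count over all miRNAs from 192 of 525 to 120 of 260. Leaving out each library in turn gave between 1 and 3 member strands: only miR-148a-5p passed without MNP2, without MWK1 or without MWK2. Over all miRNAs the counts were lower there too, at 162, 145 and 145, and highest without MNP1, at 210, where 3 strands passed. The miR-148/miR-152 ratio of 0.799 became 0.921 under library totals. miR-148a-5p passed in 18 of 18 alternatives, miR-148b-3p in 12, miR-130b-5p in 6, miR-148a-3p in 4 and miR-152-3p in 1 (library totals, log2FC 0.56, adjusted p = 0.0182, range 0.0182 to 0.53). The cause was not tested.

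The sign changed in 4 strands of miR-130/miR-301, none past the threshold in edgeR or any other alternative. With a library left out, the log2FC of miR-130b-3p was between -0.27 (without MNP1) and 0.77, that of miR-301b-5p between -0.037 (without MWK1, and -0.030 without MNP1) and 0.68, that of miR-130a-5p between -0.59 and 0.43 (without MWK2), and that of miR-130a-3p between -0.040 (without MWK6) and 0.23. All 77 alternative values of arm ratio differences and 81 of guide ratio differences moved by less than 1 SD. This does not show stability, because leaving out 1 of 3 libraries can hardly move a mean by more. Row handling could not move these values, as each member had 1 row. Of these values 2 and 10 changed sign, each with a library left out and in miR-130/miR-301. These were mir-130a (-0.21, and 0.16 without MWK2), mir-130b (0.25, and -0.11 without MNP2) and the pairs among miR-130a-3p, miR-130b-3p and miR-301a-3p.

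With the replicate block, possible for the 4 numbered libraries, 4 member strands passed (3 in the same libraries without it), and 202 miRNAs overall against 169. miR-130b-5p made the difference, with an edgeR adjusted p of 0.0103 with the block and 0.0537 without. The differences between replicates 1 and 2 had a correlation of 0.039 between groups, and the sources do not say whether equal numbers mark 1 litter.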
